A study of Bos taurus with 28 samples.

Results

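The pair described here is bta-miR-320a and bta-miR-320b, close relatives of the miR-320 family, and it makes up 2 of the 132 miRNAs measured in bovine milk extracellular vesicles (EVs). Both were chosen by name, with no threshold on level, fold change or p, although earlier results of these data were known when they were chosen. The series asked whether the miRNA cargo of milk EVs differs between evening and morning milkings. Small RNA was sequenced in 28 libraries of EVs from skimmed milk of 4 cows with healthy udders, 14 from evening and 14 from morning milkings. Cow 3 gave 6 libraries (days 1, 2 and 4), Cow 2 gave 8 and Cow 4 gave 8 (days 1 to 4), and Cow 1 gave 6 (days 1, 3 and 4), with an evening and a morning library on each day. The milk of each library carries a somatic cell count (SCC), which ran between 18 and 300 cells/µL. No treatment was given, and since each cow is 1 animal milked repeatedly, the tests between cows rest on the spread between its milkings and not on a spread between animals of a kind.

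Most miRNAs are cut out of long primary transcripts by the nuclease Drosha and then trimmed by Dicer. In human and mouse cells miR-320a is known as an exception: its short capped hairpin is the end product of transcription and goes to Dicer without Drosha, and the guide strand comes from the 3′ arm. The family is known in human cells for targets in glycolysis (PFKM), in Wnt signalling (CTNNB1) and in iron uptake (TFRC). In the RefSeq gene table for the assembly ARS-UCD2.0, miR-320a has 2 loci, MIR320A-1 between PHYHIP and POLR3D and MIR320A-2 inside RNF180. miR-320b has 1 locus, MIR320B, between PODXL and PLXNA4. The table of values holds 1 row for miR-320a, so its reads could not be divided between the 2 loci. How a sequence that fits both miRNAs was assigned is not given in the sources used here.

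A library held 101968 to 325211 reads over the 132 miRNAs (median 158620). The epithelial markers miR-200a, miR-200b, miR-200c, miR-141, miR-429 and miR-375 were all measured (6 of 6) and took 4.78% to 12.96% of the reads of a library. Of the immune list 3 of 7 were measured (0.0193% to 0.0686% of the reads), with miR-150, miR-223 and both arms of miR-142 not among the 132. Of the stromal list 2 of 5 were measured (0.00136% to 0.0442%), and of the red blood cell list 2 of 5 (0.0260% to 0.223%), without miR-451, miR-486 and miR-144. In these bulk libraries, fewer vesicles from a cell type and less of a miRNA per vesicle cannot be told apart.

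miR-320a was an abundant miRNA and miR-320b a rare one. miR-320a stood at rank 19 of 132 by mean level, at 13.31 ± 0.51 log2 CPM (SD, n = 28), and took 1.06% ± 0.31 of the reads of a library. It had 486 to 4580 reads per library and 50236 in all. miR-320b stood at rank 126, at 5.26 ± 0.73 log2 CPM (SD, n = 28). It had 1 to 14 reads per library and 139 in all, and no library was at 0, a value that stands at 3.55 on this scale. The variance of its reads over libraries was 2.25 times their mean of 4.96.

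The rank of miR-320a was close in the 4 cows, namely 18 for Cow 3, 22 for Cow 2, 18 for Cow 4 and 18 for Cow 1. Its neighbours in mean level were miR-375 (13.53) and miR-423-5p (13.45) above it and miR-125a (13.24) and miR-26b (13.23) under it. Those gaps in log2 CPM are smaller than the SD of miR-320a over libraries. The SD of miR-320a within cows was 0.39 (log2), and 15 of the 20 miRNAs nearest to it in level had a lower SD, with a median of 0.25. The neighbours of miR-320b were miR-20a (5.32) and miR-12014 (5.28) above it and miR-2284ab (5.23) and miR-2890 (5.15) under it, again within its own SD.

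**Figure D1:**
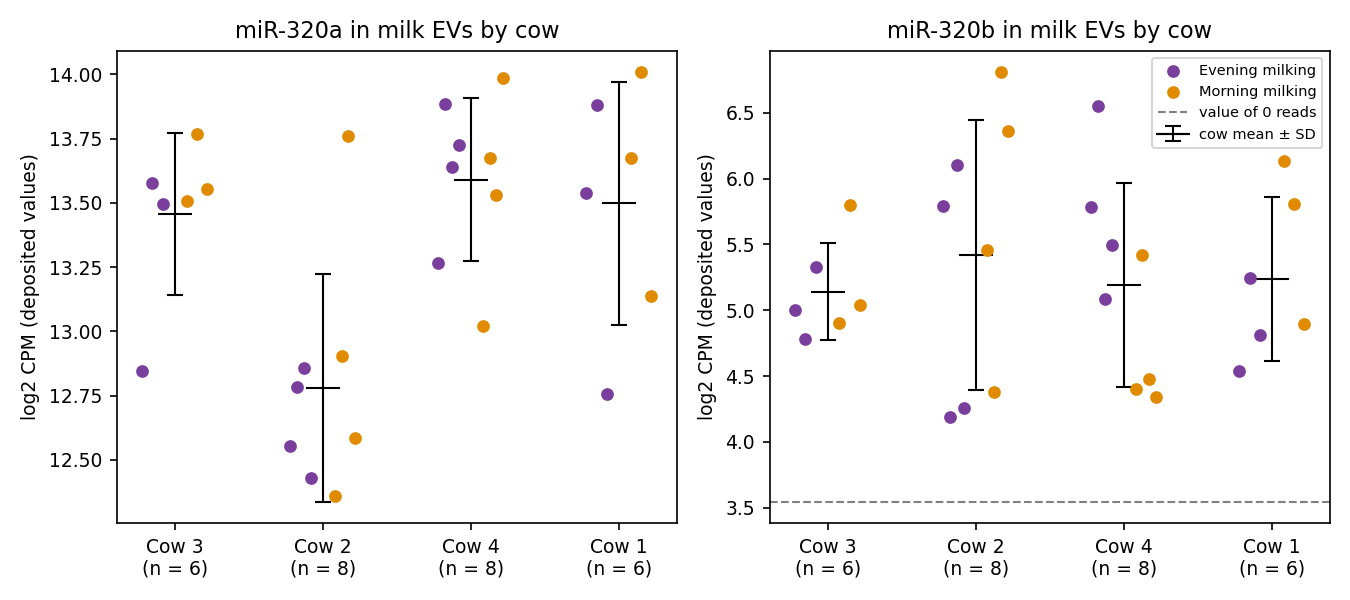
Deposited log2 CPM of miR-320a (left) and miR-320b (right) in each of the 28 libraries, by cow and milking, with the mean and SD of each cow. For miR-320a the mean of Cow 2 (12.78) lay under those of Cow 3 (13.46), Cow 4 (13.59) and Cow 1 (13.50), whereas the miR-320b values of the 4 cows overlapped above the value of 0 reads (3.55).

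The cows differed in miR-320a, and Cow 2 held the low end. In Cow 3 the values were 12.85, 13.58 and 13.49 log2 CPM in evening milk of days 1, 2 and 4, and 13.51, 13.77 and 13.55 in morning milk of the same days. In Cow 2 they were 12.55, 12.79, 12.86 and 12.43 in evening milk of days 1 to 4, and 12.36, 12.91, 13.76 and 12.59 in morning milk. The morning library of day 3 stood apart from all other libraries of Cow 2, which lay at 12.91 or lower.

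In Cow 4 the values were 13.27, 13.88, 13.64 and 13.72 in evening milk of days 1 to 4, and 13.02, 13.67, 13.53 and 13.98 in morning milk. In Cow 1 they were 13.54, 13.88 and 12.76 in evening milk of days 1, 3 and 4, and 13.68, 14.01 and 13.14 in morning milk. The groups overlapped: 4 of the 8 libraries of Cow 2 lay under the lowest library of any other cow (12.76), and 2 of the 20 libraries of the other cows lay under 12.91.

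The mean and SD of miR-320a in log2 CPM were, for Cow 3, 13.46 ± 0.31 (n = 6), for Cow 2, 12.78 ± 0.44 (n = 8), for Cow 4, 13.59 ± 0.32 (n = 8) and, for Cow 1, 13.50 ± 0.47 (n = 6). Over the 4 cows the moderated F test of limma called miR-320a (adjusted p = 0.00229), as it called 62 of the 132 miRNAs (47.0%), so a difference between cows was common in this table. Cow accounted for 46.7% of the variance of miR-320a, rank 32 of 132, where the median miRNA had 26.8%. In morning libraries alone the adjusted p of the F test was 0.230, and without Cow 2 it was 0.893.

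miR-320a was 1.60-fold higher in Cow 3 than in Cow 2 (log2 difference 0.68, SE 0.20, adjusted p = 0.00769). In that comparison 30.3% of the miRNAs passed, 16.7% higher and 13.6% lower in Cow 3. It was 1.65-fold lower in Cow 2 than in Cow 1 (log2 difference -0.72, SE 0.20, adjusted p = 0.0124, against 9.85% of miRNAs called, 3.03% higher and 6.82% lower in Cow 2). It was 1.75-fold lower in Cow 2 than in Cow 4 (log2 difference -0.81, SE 0.18, adjusted p = 0.00164, against 18.9% called, 9.09% higher and 9.85% lower in Cow 2). With the 2 milkings of a day averaged, the adjusted p was 0.0584 for Cow 3 against Cow 2 and 0.114 for Cow 2 against Cow 1, while Cow 2 against Cow 4 stayed past the threshold. In morning libraries alone no call remained, with an adjusted p of 0.134 for Cow 3 against Cow 2, 0.299 for Cow 2 against Cow 1 and 0.253 for Cow 2 against Cow 4. In evening libraries alone it was 0.0987 for Cow 3 against Cow 2 and 0.113 for Cow 2 against Cow 1, and Cow 2 against Cow 4 was called. Scaled to the clean reads of each library, the log2 difference was -0.59 for Cow 2 against Cow 1 (adjusted p = 0.287), beside a median of 0.051 over all miRNAs. For Cow 2 against Cow 4 it was -0.48 (adjusted p = 0.195), beside a median of 0.26. For Cow 3 against Cow 2 it was 1.21 (adjusted p = 0.000438), beside a median of 0.45. Without the morning library of day 3 of Cow 1, the difference between Cow 2 and Cow 1 was -0.62 (adjusted p = 0.0576).

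The other 3 cow contrasts of miR-320a did not pass the test. The log2 difference was -0.04 for Cow 3 against Cow 1 (95% interval -0.47 to 0.39, adjusted p = 0.908), where 22.7% of the miRNAs were called, 9.85% higher and 12.9% lower in Cow 3. It was -0.13 for Cow 3 against Cow 4 (-0.54 to 0.27, adjusted p = 0.693), where 25.8% were called, 11.4% higher and 14.4% lower in Cow 3. It was 0.09 for Cow 4 against Cow 1 (-0.31 to 0.50, adjusted p = 0.858), where 5.30% were called, 2.27% higher and 3.03% lower in Cow 4. The direction of Cow 3 against Cow 4 depended on the scaling: with clean reads as the scale it was 0.72 (adjusted p = 0.0203), beside a median of 0.75 over all 132 miRNAs on that scale.

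Members of the cell type marker lists also differed between the same cows, in both directions. miR-10b of the stromal list, a Hox cluster miRNA known from stromal cells, was lower in Cow 2 than in Cow 1 (log2 difference -2.16, SE 0.36, adjusted p = 4.06e-05), where the median over all miRNAs was -0.07. The other stromal marker measured, miR-143, was not called there (-0.29, SE 0.35, adjusted p = 0.649). Of the 6 epithelial markers, miR-375 (-0.70, SE 0.13, adjusted p = 0.000294) and miR-200c (-0.36, SE 0.10, adjusted p = 0.0102) fell in the same contrast, the other 4 did not pass the test, and the median of the list was 0.090. In Cow 2 against Cow 4, miR-200b was higher in Cow 2 (0.27, adjusted p = 0.0299), as was miR-16a (0.75, adjusted p = 0.00574). No stromal marker passed there. In Cow 3 against Cow 2, miR-143 was lower in Cow 3 (-1.06, adjusted p = 0.0177), opposite in sign to miR-320a. miR-200c (0.40, adjusted p = 0.00160) and miR-16b (1.18, adjusted p = 0.00160) were higher in Cow 3. No immune marker was called in a contrast with Cow 2. Of the epithelial list 3 of 6 were called over the cows, of the immune list 2 of 3, of the stromal list 2 of 2 and of the red blood cell list 2 of 2, beside 47.0% of all miRNAs. Those of the red blood cell list were miR-16a and miR-16b, which are also on the list of normalisers below. The summed stromal list took 0.00136% to 0.0115% of the reads in libraries of Cow 3, 0.00296% to 0.0173% for Cow 2, 0.00317% to 0.0442% for Cow 4 and 0.00830% to 0.0255% for Cow 1. The summed epithelial list took 8.84% to 12.96% for Cow 3, 6.47% to 10.4% for Cow 2, 4.78% to 10.1% for Cow 4 and 8.02% to 9.83% for Cow 1. Their part in the differences of miR-320a was not tested.

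For miR-320b no cow comparison passed the test. The mean and SD in log2 CPM were, for Cow 3, 5.14 ± 0.37 (n = 6), for Cow 2, 5.42 ± 1.03 (n = 8), for Cow 4, 5.19 ± 0.78 (n = 8) and, for Cow 1, 5.24 ± 0.62 (n = 6). The adjusted p was 0.927 over the 4 cows, and cow accounted for 2.23% of its variance. The intervals were wide: the log2 difference was -0.28 for Cow 3 against Cow 2 (95% interval -1.09 to 0.54) and 0.23 for Cow 2 against Cow 4 (-0.53 to 0.98). It was 0.18 for Cow 2 against Cow 1 (-0.64 to 1.00) and -0.10 for Cow 3 against Cow 1 (-0.97 to 0.78). It was -0.05 for Cow 3 against Cow 4 (-0.87 to 0.77) and -0.04 for Cow 4 against Cow 1 (-0.86 to 0.77). In the 3 contrasts with Cow 2 the difference of miR-320a (0.68, -0.72 and -0.81) lay outside the interval of miR-320b. The intervals of the 2 miRNAs overlapped in each, however. Those of miR-320a were 0.27 to 1.08 for Cow 3 against Cow 2, -1.12 to -0.31 for Cow 2 against Cow 1 and -1.19 to -0.44 for Cow 2 against Cow 4. The difference between the miRNAs was not tested.

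**Figure D2:**
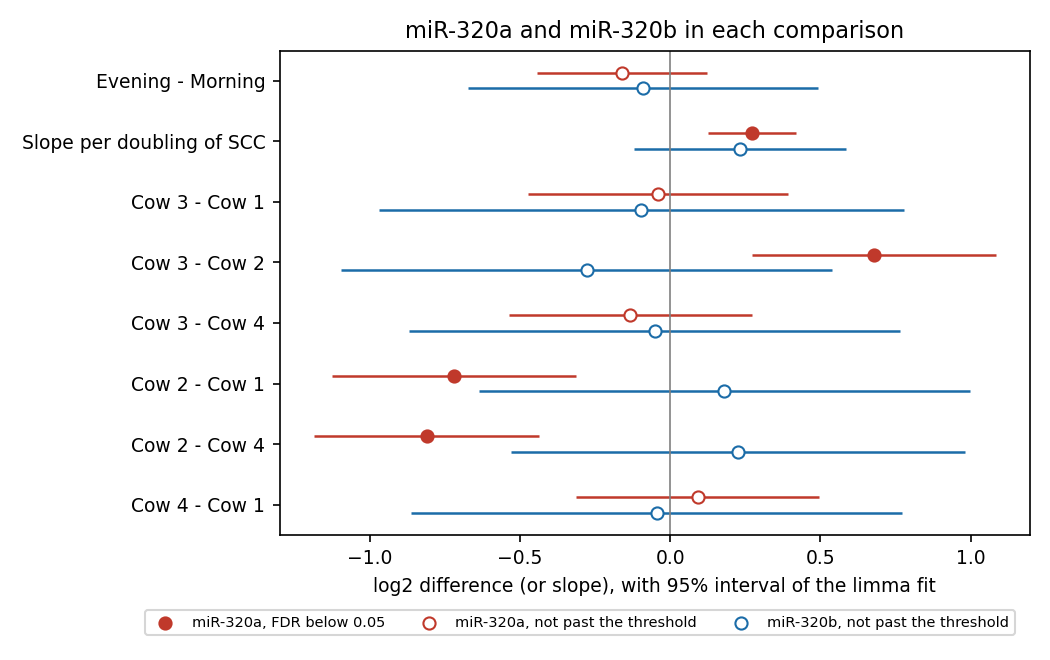
Log2 difference of miR-320a and miR-320b in each comparison of the limma fits, and the log2 slope per doubling of SCC, with 95% intervals and filled points where the FDR was below 0.05. The 3 contrasts of miR-320a that involve Cow 2 and its SCC slope (0.27) carry filled points, and every interval of miR-320b crosses 0.

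miR-320b was a small and uneven share of the reads of the pair. It made up 139 reads against 50236 of miR-320a, a share of 0.276% (95% exact Clopper-Pearson interval 0.232% to 0.326%, counting error only). The log2 ratio of miR-320b to miR-320a averaged -8.05 ± 0.81 (SD, n = 28) on the deposited values, which include a prior count added to the reads. From the pooled reads, without that count, it was -8.50. Pooled by animal, Cow 3 had a share of 0.215% (0.135% to 0.325%), Cow 2 of 0.486% (0.362% to 0.639%), Cow 4 of 0.212% (0.1496% to 0.293%) and Cow 1 of 0.237% (0.159% to 0.340%). The interval of Cow 2 lay above the other 3, and without its morning library of day 3 its share was 0.433% (0.305% to 0.596%), which overlapped the intervals of Cow 3 and Cow 1. These intervals leave out the spread between milkings, and the ratio was given no test. By session the pooled share was 0.273% in evening milk (0.213% to 0.345%) and 0.279% in morning milk (0.217% to 0.353%).

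**Figure D3:**
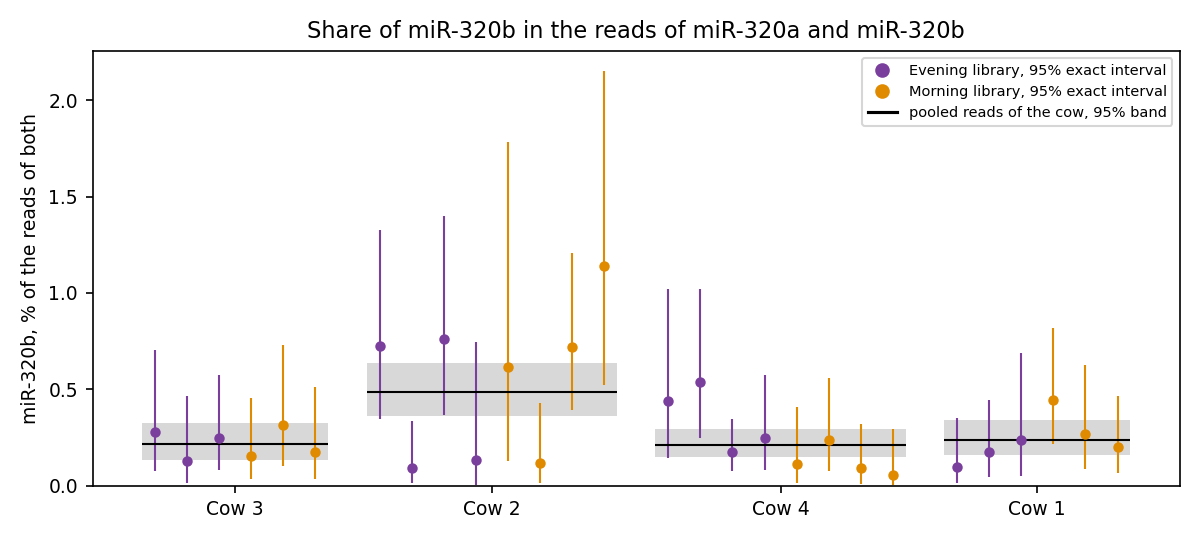
Share of miR-320b in the reads of miR-320a and miR-320b, in percent, for each library with its 95% exact interval and for the pooled reads of each cow (line and band). Cow 2 had the highest pooled share (0.486%), and the intervals of its libraries spread widely.

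Neither miRNA passed the test between milking sessions in the fit across all miRNAs. The log2 difference between evening and morning milk was -0.16 for miR-320a (SE 0.14, 95% interval -0.44 to 0.12, adjusted p = 0.996) and -0.09 for miR-320b (SE 0.28, -0.67 to 0.49, adjusted p = 0.996). In this comparison limma called 0 of the 132 miRNAs (0%), and 2 had an unadjusted p under 0.05. Within the 14 pairs of a cow and a day, miR-320a was lower in evening milk in 10 and higher in 4 (exact two-sided sign permutation test, p = 0.0859, adjusted over the 2 members p = 0.172). miR-320b was higher in evening milk in 7 pairs and lower in 7 (exact p = 0.746, adjusted p = 0.746).

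The session difference of miR-320b went opposite ways in Cow 4 and Cow 1. In Cow 4 it had 5, 9, 8 and 5 reads in evening milk of days 1 to 4, against 2, 5, 2 and 1 reads in morning milk, so that evening milk held more in 4 of 4 pairs (mean log2 difference 1.07 ± 0.32, SD). In Cow 1 it had 2, 4 and 3 reads in evening milk of days 1, 3 and 4, against 10, 5 and 5 in morning milk, so that evening milk held less in 3 of 3 pairs (-0.75 ± 0.77). The interaction of cow and session did not pass over all miRNAs (unadjusted p = 0.0602, adjusted p = 0.969), and 0 of 132 miRNAs were called in it (0%), with 1 at an unadjusted p under 0.05. The session differences of miR-320a averaged -0.30 for Cow 3, -0.25 for Cow 2, 0.076 for Cow 4 and -0.22 for Cow 1.

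SCC, the count of leukocytes and shed epithelial cells, serves as a sign of udder inflammation. In the limma fit with cow as a covariate, miR-320a was 1.21-fold higher per doubling of SCC (log2 slope 0.27, SE 0.07, adjusted p = 0.0321). Of 21 alternative fits, 11 lost this call and 1 reversed the slope. In the main fit miR-320a was 1 of 3 miRNAs called (2.27%) and the 1 with a positive slope (0.758%), against 1.52% with a negative slope. The others were miR-2285bf, a bovine miRNA (slope -0.57), and miR-141, an epithelial marker (slope -0.31). Of the epithelial list 1 of 6 was called with SCC by limma, and of the 3 immune, the 2 red blood cell and the 2 stromal markers measured 0 were. For miR-320b the slope was 0.23 (SE 0.17, adjusted p = 0.581).

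This call rested on few libraries. The 4 highest SCC values were all from day 3, at 300 (evening) and 163 cells/µL (morning) for Cow 2 and at 190 (evening) and 297 cells/µL (morning) for Cow 1. Without day 3 the slope of miR-320a was 0.24 (adjusted p = 0.9745), with the day as a covariate it was 0.20 (adjusted p = 0.799), and day 3 and a high SCC cannot be told apart in those 2 cows. Within pairs of a cow and a day, the replicate block, the slope was -0.14 (adjusted p = 0.863). Scaled to clean reads it was 0.15 (adjusted p = 0.686), beside a median slope of -0.11 over all miRNAs on that scale.

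The call ended when any of 6 libraries was left out. The adjusted p was 0.130 without Cow 1 day 3 morning, 0.0732 without Cow 1 day 3 evening, 0.0714 without Cow 1 day 4 morning and 0.0803 without Cow 1 day 4 evening. It was 0.0685 without Cow 2 day 1 morning and 0.146 without Cow 2 day 3 morning. In the pairs of a cow and a day, miR-320a moved with the sign of the SCC difference in 8 of 14 and miR-320b in 7 of 14.

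Within cows the relation of miR-320a to log2 SCC was uneven. In Cow 3 (28 to 53 cells/µL) Pearson's r was -0.38 (exact permutation p = 0.556, n = 6) and Spearman's rho was -0.66 (p = 0.175). In Cow 2 (36 to 300 cells/µL) r was 0.67 (exact permutation p = 0.0698, n = 8) and rho was 0.88 (p = 0.00724). In Cow 4 (18 to 58 cells/µL) r was 0.34 (exact permutation p = 0.412, n = 8) and rho was 0.27 (p = 0.523). In Cow 1 (39 to 297 cells/µL) r was 0.88 (exact permutation p = 0.0278, n = 6) and rho was 0.89 (p = 0.0333). Adjusted over the 4 cows, these exact p-values of r were 0.556, 0.140, 0.549 and 0.111, and those of rho were 0.233, 0.0290, 0.523 and 0.0667. Without the 2 libraries farthest from the median SCC, r was -0.55 for Cow 3, 0.80 for Cow 2 and 0.85 for Cow 1. For Cow 4 r was -0.82 without day 1 evening and day 4 morning. However, day 1 morning (13.02 log2 CPM) and day 4 morning (13.98) of Cow 4 tied at 58 cells/µL. Their order alone decided which was left out, so no direction is drawn from the value for Cow 4. Evening and morning libraries of a day are not fully independent.

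**Figure D4:**
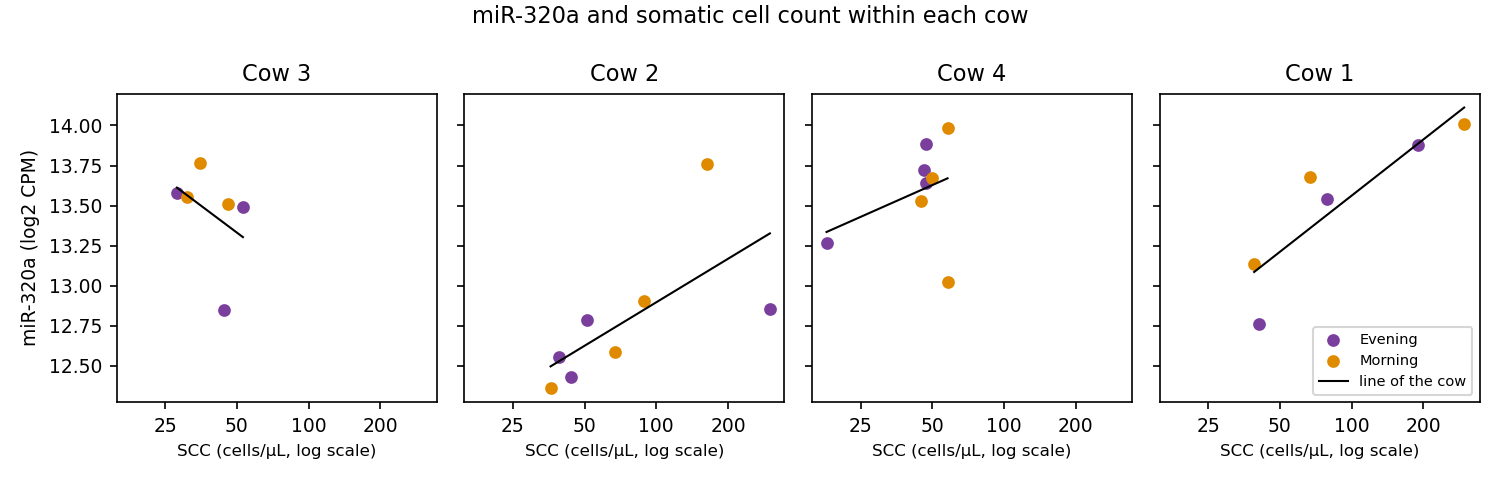
miR-320a (log2 CPM) against SCC on a log scale in each cow, by milking, with the least-squares line of the cow. The lines climb in Cow 2, Cow 4 and Cow 1 (slopes 0.27, 0.20 and 0.35 per doubling) and descend in Cow 3 (-0.34), and the libraries of Cow 3 and Cow 4 end at 53 and 58 cells/µL.

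Over the collection days miR-320a did not pass the test either. The range of its day terms was 0.58 (log2), with an unadjusted p of 0.00948 and an adjusted p of 0.2503, while 0 of 132 miRNAs were called (0%) and 14 had an unadjusted p under 0.05. For miR-320b the range was 0.51 (adjusted p = 0.885).

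The pair moved together only loosely. With 1 to 14 reads of miR-320b per library, counting error limits the r it can reach, by an amount that was not tested. With cow means taken off, Pearson's r of miR-320a and miR-320b over the 28 libraries was 0.40 and Spearman's rho 0.37, as a description with no p, since the libraries share cows, days and scaling. Among all 8646 pairs of miRNAs 8.61% had a higher r, and the median was 0.004. Without Cow 2 day 3 morning r was 0.24, and on the clean-read scale it was 0.044. By animal r was 0.39 for Cow 3, 0.44 for Cow 2, 0.24 for Cow 4 and 0.59 for Cow 1. In evening milk, against morning milk of the same day, both were higher in 4 pairs and both lower in 7, and in 3 pairs miR-320a was lower while miR-320b was higher.

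**Figure D5:**
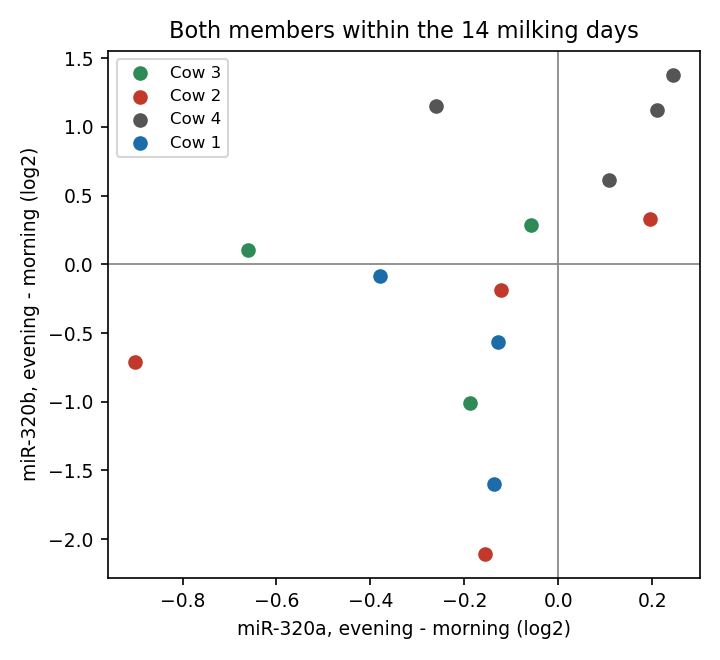
Evening minus morning difference (log2) of miR-320b against that of miR-320a in the 14 pairs of a cow and a day. The signs were the same in 11 of 14 pairs, and the 4 pairs of Cow 4 all lie above 0 for miR-320b.

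Other miRNAs tracked miR-320a more closely than miR-320b did, which was the 16th of its 131 partners. The counting error of miR-320b applies to this rank too. The highest r, with cow means taken off and over the 28 libraries, was with miR-193a-5p (0.68), miR-2890 (0.59) and miR-2340 (0.55). For miR-320b it was with miR-2340 (0.63), miR-8549 (0.61) and miR-363 (0.56). Of 8 miRNAs described in human or mouse as made without Drosha or from small nucleolar RNA, 4 were measured: the pair, miR-1839 and miR-664b. Of these, 2 of 4 were called over the cows, miR-320a and miR-1839, a share near the 47.0% of all miRNAs. miR-1839 was lower in Cow 3 than in Cow 2 (log2 difference -0.63, SE 0.23, adjusted p = 0.0362), opposite in sign to miR-320a. Of 8 miRNAs often used as normalisers in body fluids, all 8 were measured. Over the cows 3 were called, miR-103, miR-16a and miR-16b, beside 47.0% of all miRNAs. With SCC 0 were called, beside 2.27% of all miRNAs, so that count does not set the normalisers apart. The median log2 difference of the normalisers was 0.27 for Cow 3 against Cow 2 (-0.02 over all miRNAs), -0.11 for Cow 2 against Cow 1 (-0.07) and -0.19 for Cow 2 against Cow 4 (-0.06). In the contrasts without Cow 2 it was 0.27 for Cow 3 against Cow 1 (-0.06), 0.16 for Cow 3 against Cow 4 (-0.0073) and 0.00997 for Cow 4 against Cow 1 (-0.04).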

How the data were processed

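EV RNA of 28 skimmed milk samples was sequenced as small RNA. The authors cleaned reads with Trim Galore!, filtered unique sequences by CPM, assigned them to the mature cattle miRNAs listed in miRBase and counted isomiRs with their canonical miRNA. A sequence filter of this kind can remove rare variants, and its effect on miR-320b was not tested. The deposited values are log2 CPM made by the authors with edgeR. Reads were worked back from the distance of each value above the value of 0 reads, in the unit that made all values whole. Whole reads (within 0.01) were required of all 3696 values. The prior count of 2 was assumed, and the whole reads do not test it. The normalization factors were 0.696 to 1.35. The genome build is not given in the sources used here, and RefSeq served for locus names only.

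limma 3.58.1 in R 4.3.3 was fitted to the log2 values of all 132 miRNAs with an empirical Bayes trend, two-sided, with Benjamini-Hochberg adjustment and an FDR below 0.05. Session and SCC fits had cow as a covariate. The fit was tested on simulated log2 values with independent normal noise for each library and miRNA. Such data hold no noise shared by a day, a pair or a scaling, and no read counts. Exact permutation tests and Clopper-Pearson intervals (95%) used scipy 1.17.1. The limit that a count of 0 allows (3 reads) came to 8.35 to 32.4 CPM. Groups came from the sample labels. Alternatives were other scalings (among them clean reads, from the study's read totals), low-value filters, limma-voom on recovered reads, blocks, covariates and left-out libraries, days or cows. Those chosen after seeing the data were without day 3, without both Cow 2 day 3 libraries, the normalization factor as a covariate, and SCC within cows. The text names both members, the 3 miRNAs most correlated with each, their neighbours in level and list members that were called. Members and lists were chosen with earlier results of these data known. Evening and morning libraries of a cow and day share an animal. The residuals of such pairs correlated by 0.0774 on average (lowest -0.296), against -0.203 between other days of a cow. Cow and session means had been taken off, which by itself pulls r between libraries of a cow under 0.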

Additional observations from a re-analysis of the deposited data

Results flagged for a closer look

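Among groups of 4 to 10 libraries, 12 were looked at for a library far from the others, of which chance gives about 1 in 20, and 2 held such a library. Cow 2 day 3 morning had the highest miR-320a of Cow 2, at 13.76 log2 CPM, with 1931 reads. Cow 3 day 1 evening had the lowest miR-320a of Cow 3, at 12.85 log2 CPM, with 1443 reads. The session difference of miR-320b, evening minus morning, was 1.82 higher (log2) in Cow 4 than in Cow 1, where every pair of Cow 4 moved up and every pair of Cow 1 moved down. The interaction of cow and session over all 4 cows had an unadjusted p of 0.0602 and an adjusted p of 0.969 in limma.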

How the results depend on the processing

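Of 417 alternative values over 25 results, 348 were scored as unchanged, as were 675 of 700 with a library left out. Unchanged meant the same direction and side of the threshold. For ranges, which have no direction, the side of the threshold alone counted. The ratios and r had no threshold and counted as unchanged if they moved by less than an SD or, for r, a standard error. A mean ratio can hardly move that far when a library is left out. The cause of the changes was not tested. Depth limits miR-320b, at 1 to 14 reads a library.

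Scaled to clean reads, the session difference was 0.0053 for miR-320a and 0.0044 for miR-320b, the SCC slope of miR-320a 0.15 and r of the pair 0.044. Over all miRNAs the median on that scale was 0.17 for the session difference and -0.11 for the SCC slope. On the deposited scale with cow means kept r was 0.20. On the clean-read scale miR-320a differed by 0.62 for Cow 3 - Cow 1, 0.72 for Cow 3 - Cow 4, -0.59 for Cow 2 - Cow 1, -0.48 for Cow 2 - Cow 4 and -0.10 for Cow 4 - Cow 1. miR-320b differed by 0.37 for Cow 3 - Cow 1, 0.14 for Cow 3 - Cow 2 and 0.53 for Cow 3 - Cow 4. The median of all miRNAs was then 0.55 for Cow 3 - Cow 1, 0.45 for Cow 3 - Cow 2 and 0.75 for Cow 3 - Cow 4. For Cow 2 - Cow 1 it was 0.051, for Cow 2 - Cow 4 0.26 and for Cow 4 - Cow 1 -0.21. With library medians equal, Cow 3 - Cow 1 was 0.13 for miR-320a (0.11 for the median miRNA) and 0.073 for miR-320b, and Cow 4 - Cow 1 was 0.11 for miR-320b. With quantile normalization the SCC slope of miR-320a was 0.18, Cow 3 - Cow 1 was 0.15 for miR-320a and 0.21 for miR-320b, and Cow 3 - Cow 4 was 0.30 for miR-320b. Cow 3 - Cow 4 of miR-320b was 0.015 with log2(CPM + 1) and 0.091 with limma-voom.

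The SCC slope of miR-320a was 0.27 with no variance trend (adjusted p = 0.0609), 0.11 without cow as a covariate, 0.20 with day added, 0.22 without Cow 1 and 0.27 without Cow 2 (adjusted p = 0.292). With the cow and day pair as a replicate block it was -0.14, and that of miR-320b -0.24. The block was used in the session and SCC fits alone, so the cow contrasts were not fitted with it. Without Cow 1 the session difference of miR-320b was 0.089, and without Cow 2 it was 0.14, while the range of cow means of miR-320a was then 0.13.

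Without libraries above 200000 cells/mL (2 libraries) the SCC slope of miR-320a was 0.38, Cow 3 - Cow 1 was 0.060 and Cow 2 - Cow 1 was -0.63 for miR-320a, and Cow 3 - Cow 1 was 0.017 and Cow 4 - Cow 1 was 0.070 for miR-320b. Without day 3 the SCC slope was 0.24 for miR-320a and -0.26 for miR-320b, Cow 3 - Cow 1 was 0.18 for miR-320a and 0.047 for miR-320b, and miR-320b differed by 0.068 for Cow 3 - Cow 2, -0.021 for Cow 2 - Cow 1, -0.26 for Cow 2 - Cow 4 and 0.24 for Cow 4 - Cow 1. Without both Cow 2 day 3 libraries the slope of miR-320a was 0.28 (adjusted p = 0.125), and miR-320b differed by 0.068 for Cow 3 - Cow 2, -0.16 for Cow 2 - Cow 1 and -0.12 for Cow 2 - Cow 4. With the normalization factor added the slope was 0.25, Cow 3 - Cow 1 was 0.13 for miR-320a and 0.33 for miR-320b, and Cow 3 - Cow 4 was 0.047 for miR-320a and 0.39 for miR-320b.

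In evening libraries alone Cow 3 - Cow 2 was 0.65 and Cow 2 - Cow 1 was -0.74 for miR-320a, neither past the threshold, and miR-320b differed by 0.17 for Cow 3 - Cow 1, -0.64 for Cow 2 - Cow 4 and 0.86 for Cow 4 - Cow 1. In morning libraries alone the range of cow means and Cow 3 - Cow 2 of miR-320a were both 0.71, with 0.0022 for Cow 3 - Cow 1, 0.056 for Cow 3 - Cow 4, -0.70 for Cow 2 - Cow 1, -0.65 for Cow 2 - Cow 4 and -0.054 for Cow 4 - Cow 1, and Cow 3 - Cow 4 of miR-320b was 0.58. None of the 6 cow contrasts of miR-320a passed the threshold there. With the 2 milkings of a day averaged, Cow 3 - Cow 2 of miR-320a was 0.68 and Cow 2 - Cow 1 was -0.72.

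With each library left out in turn, miR-320a ranged between 0.22 and 0.35 for the SCC slope, -0.19 and 0.081 for Cow 3 - Cow 1, -0.87 and -0.62 for Cow 2 - Cow 1, and -0.057 and 0.19 for Cow 4 - Cow 1. miR-320b ranged between -0.21 and 0.024 for the session difference, -0.24 and 0.083 for Cow 3 - Cow 1, -0.18 and 0.14 for Cow 3 - Cow 4, -0.018 and 0.36 for Cow 2 - Cow 1, and -0.24 and 0.13 for Cow 4 - Cow 1. Over the other alternatives the number of miRNAs called ran between 15 and 65 over the cows (62 as reported), 0 and 6 with SCC (3), 0 and 4 over the days (0), 5 and 35 for Cow 3 - Cow 1 (30), 19 and 47 for Cow 3 - Cow 2 (40), 13 and 70 for Cow 3 - Cow 4 (34), 4 and 21 for Cow 2 - Cow 1 (13), 1 and 38 for Cow 2 - Cow 4 (25), and 3 and 9 for Cow 4 - Cow 1 (7).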
